A study of Mus musculus with 23 samples.

Results

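The genes described here encode the proteins of the cytosolic ribosome, measured in 23 bulk RNA libraries of whole mouse heart. They were chosen by name: protein-coding genes with a symbol of the form Rpl, Rps, Rplp or Rpsa followed at most by a number and a single letter, with pseudogenes left out. The rule found 76 genes among 55487 gene identifiers, of which 46 encode proteins of the large subunit and 30 proteins of the small subunit. All 76 passed the filter on low counts, which left 15732 genes for testing. The rule leaves out genes whose names differ although their products belong to the ribosome, such as Fau, Rack1 and Rps3a1, as well as the paralogs with a lettered suffix such as Rpl3l and Rpl22l1. These are described beside the members as related genes.

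All hearts came from 10-week-old wild-type females of the inbred strain C57BL/6J. Isoproterenol (ISO), which stimulates beta-adrenergic receptors, was given at 300 mg/kg in one arm. In the other arm lipopolysaccharide (LPS), a component of the bacterial cell wall, was given at 2.5 mg/kg. Hearts were collected on day 1 and day 7, and each arm had its own untreated baseline group; the baseline mice are labelled as having had no treatment, not a vehicle. ISO day 1 held 3 libraries and the other 5 groups held 4 each. The design text speaks of mice in each group, so the replicates were taken as separate animals and p-values measure the spread between them together with that of library making.

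A ribosome joins a small subunit, which reads the messenger RNA, to a large subunit, which forms the peptide bonds, and each subunit is built on ribosomal RNA with a set of proteins present as a single copy apart from the P stalk. The messenger RNAs of these proteins belong to the TOP class, named for a terminal tract of pyrimidines at the 5′ end through which their translation follows the mTORC1 kinase and the RNA-binding protein LARP1. Transcription of ribosomal RNA and of assembly factors is a known target of MYC. In heart muscle, growth under adrenergic stimulation is known to come with more ribosomes.

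The pyrimidine tract is the feature for which these genes are known. Sequence around the transcription start is therefore shown for Rps27 and for members named in the results below. Starts were taken from RefSeq (GRCm38.p6), where 56 of the 76 members had at least 1 start and 66 starts in all. Each line runs 5′ to 3′ on the gene's strand, from 15 bases before the start through the first 15 transcribed bases, and capitals mark the longest run of C or T. The first 6 have a run of at least 8 bases and the last 5 do not. Rps21 and Rpl22 each have another RefSeq start, not shown, whose longest run is also under 8 bases.

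Rps6 (chr4:86857353-86857382, minus strand): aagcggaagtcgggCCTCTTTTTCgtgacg
Rps18 (chr17:33955651-33955680, minus strand): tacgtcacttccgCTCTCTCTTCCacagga
Rpl7a (chr2:26910792-26910821, plus strand): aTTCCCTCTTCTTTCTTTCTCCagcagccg
Rps15a (chr7:118116133-118116162, minus strand): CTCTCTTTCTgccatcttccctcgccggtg
Rpl18 (chr7:45718056-45718085, plus strand): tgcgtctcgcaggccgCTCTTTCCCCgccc
Rps27 (chr3:90213634-90213663, minus strand): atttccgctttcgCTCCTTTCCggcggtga
Rpl12 (chr2:32961697-32961726, plus strand): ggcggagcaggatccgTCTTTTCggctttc
Rpl10 (chrX:74270801-74270830, plus strand): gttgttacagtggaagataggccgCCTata
Rps13 (chr7:116334176-116334205, minus strand): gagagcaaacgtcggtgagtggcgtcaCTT
Rps21 (chr2:180257364-180257393, plus strand): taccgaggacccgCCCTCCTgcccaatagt
Rpl22 (chr4:152325711-152325740, plus strand): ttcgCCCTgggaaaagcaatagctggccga

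A run of at least 8 C or T within these 30 bases was found at 26 of the 66 member starts (39.4%) and at 12.0% of 32851 starts of all genes. The same search for A or G, which is the pyrimidine run on the opposite strand, found 4.55% of member starts and 13.2% of all starts. The ETS-type motif CCGGAAGT, searched on both strands of the 300 bases from 250 before to 50 after the start, was present at 16.7% of member starts and 3.89% of all starts. A match describes the letters in the window and is not a measured start or a bound factor. A run may lie wholly before the start, as in Rps15a, so having a run is not the same as having a terminal tract. The day 1 changes of members with and without a run at any of their starts are given as medians, with no test. The median log2 change after ISO was 0.67 for the 25 members with a run and 0.76 for the 31 without, and after LPS it was 0.56 and 0.55.

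Library totals ran from 20910394 to 30368985 reads assigned to genes, and the members together held 209547 to 491069 of these. The fewest reads on a member in any library were 574.64. Near-identical copies limit the reading of single members: 297 pseudogenes named after 59 of the members carried a number of reads equal to 6.98% to 8.95% of the members' own, and 74 members had non-whole estimated counts in at least 1 library. The share was largest for Rps23 (131.8%), Rpl31 (87.7%), Rpl10 (75.6%) and Rps6 (75.2%). Where a gene is compared between samples, levels are read counts scaled to the library's size with TMM factors (CPM). Where genes are compared with each other, they are TPM, which also divides by transcript length.

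By mean TPM over the 23 libraries the members spanned more than an order of magnitude. Rplp1, a protein of the acidic stalk that recruits elongation factors, was highest with a mean of 984 TPM, and Rps24 was also among the highest with 716. The lowest were Rpl5, which carries the 5S ribosomal RNA into the large subunit, with 72.7 TPM, Rps20 with 77.1 and Rpl12 with 87.4.

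The share of a library's reads on the 76 genes rose and then came back toward baseline in both arms. In the ISO arm it was 1.01%, 1.00%, 0.981% and 0.981% in the 4 baseline libraries, 1.57%, 1.66% and 1.48% on day 1, and 1.02%, 1.10%, 1.21% and 1.10% on day 7. In the LPS arm it was 0.890%, 0.928%, 0.902% and 0.882% at baseline, 1.35%, 1.30%, 1.25% and 1.25% on day 1, and 1.19%, 1.06%, 1.05% and 1.02% on day 7. In both arms the treated groups lay above their own baseline with no overlap at either time, and the day 1 libraries lay above the day 7 libraries. The day 7 values stood closer to baseline than to day 1 in the ISO arm, where the means were 0.992% ± 0.0132 (SD, n = 4), 1.57% ± 0.0888 (SD, n = 3) and 1.11% ± 0.0807 (SD, n = 4). The corresponding LPS means were 0.900% ± 0.0202, 1.29% ± 0.0493 and 1.08% ± 0.0772 (SD, n = 4 each). No test is given for this sum over chosen genes. The shares are of library totals and take no TMM factors, whose means were 0.991 at LPS baseline and 1.11 on LPS day 7. With library totals the median of all genes also lay above baseline on day 7 after LPS, as described below.

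**Figure D1:**
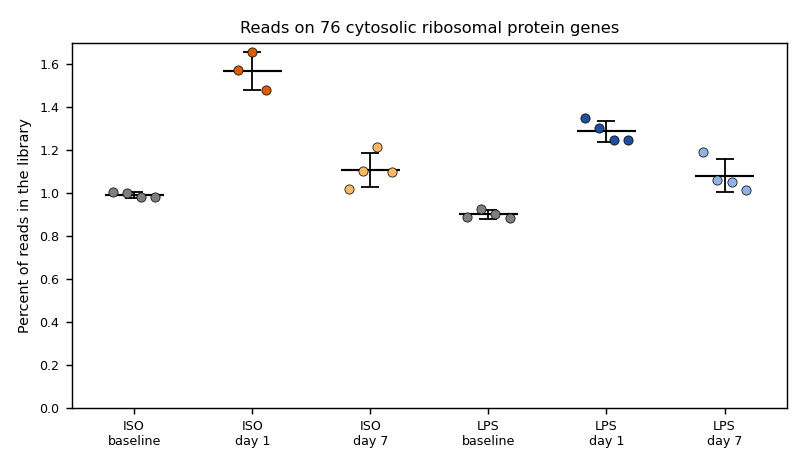
Percent of each library's reads on the 76 cytosolic ribosomal protein genes, by group. Points are libraries, long bars are means and whiskers are SD; ISO day 1 lies between 1.48% and 1.66%, above every other library.

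The first comparison asked how these genes stood 1 day after ISO. By edgeR's quasi-likelihood test with Benjamini-Hochberg adjustment over all genes, 74 of the 76 members rose and none fell, against 32.9% of all genes tested that rose and 32.8% that fell. The members' median log2 change was 0.70, against -0.01 over all genes, and 76 of 76 were above 0. The counts were the same with DESeq2 and with limma-voom, and no member was lower at an unadjusted p under 0.05, against 34.4% of all genes. In 75 of the 76 every day 1 library lay above every baseline library in CPM, against 33.4% of all genes. Among large-subunit genes 45 of 46 were called, with a median of 0.71, and among small-subunit genes 29 of 30, with a median of 0.69. In bulk tissue, more RNA per cell and more cells of a type that holds much of it cannot be told apart.

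Rpl3, a core large-subunit protein close to the peptidyl transferase centre, changed most. Its level was 74.3, 76.7, 68.3 and 72.1 CPM in the 4 ISO baseline hearts and 241, 268 and 249 CPM in the 3 ISO day 1 hearts. The lowest treated heart stood far above the highest untreated one. The log2 change was 1.79 ± 0.10 (SE), with an adjusted p of 1.4e-12 by edgeR's quasi-likelihood test. Rpl10, which is added late to the large subunit, was next: 95.5, 98.7, 97.2 and 99.5 CPM at baseline and 218, 219 and 206 CPM on day 1. Its groups did not overlap either, and the log2 change was 1.13 ± 0.07 (adjusted p = 3.22e-12 by edgeR).

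Rpl12, a protein at the base of the stalk, was at 37.8, 39.2, 38.4 and 33.6 CPM at ISO baseline and at 82.3, 80.6 and 68.4 CPM on day 1, a log2 change of 1.05 ± 0.11 (adjusted p = 1.48e-08 by edgeR). Rps6, the small-subunit protein phosphorylated by S6 kinase, was at 125, 118, 126 and 120 CPM at baseline and at 234.97, 256 and 222 CPM on day 1, a log2 change of 0.96 ± 0.07 (adjusted p = 1.46e-10 by edgeR). Every day 1 library of both genes lay above every baseline library. Rps18, a protein of the head of the small subunit, rose by 0.99 on the log2 scale from 108 to 116 CPM to 219 to 226 CPM. Rplp0, the scaffold of the stalk, rose by 0.76, at 954, 960 and 959 CPM on day 1 against 548 to 580 CPM at baseline.

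At the other end, Rpl22 and Rps21 did not pass the test on counts. Rpl22, a large-subunit protein that also binds messenger RNA outside the ribosome, was at 75.7, 69.7, 71.7 and 65.1 CPM at ISO baseline and at 75.5, 74.4 and 68.2 CPM on day 1. It was the only member whose libraries overlapped between these groups, with a log2 change of 0.04 ± 0.07 (adjusted p = 0.582 by edgeR). The deposited effective length of Rpl22 differed between the same groups, at 482 ± 4.55 bases (SD, n = 4) at baseline and 372 ± 6.58 bases (SD, n = 3) on day 1. Per length, Rpl22 was therefore at 161, 162, 163 and 155 TPM at baseline and at 227, 233 and 198 TPM on day 1, with no overlap. With effective-length offsets in edgeR its log2 change was 0.39 (adjusted p = 0.00029), so the call on this gene turns on whether reads or length-scaled values are compared.

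Rps21, one of the smallest proteins of the small subunit, was at 81.9, 79.4, 78.7 and 75.7 CPM at ISO baseline and at 84.2, 82.7 and 88.6 CPM on day 1. All day 1 values lay just above the baseline values, but the log2 change of 0.11 ± 0.06 missed the threshold (adjusted p = 0.12 by edgeR). It passed with log2(TPM + 0.1) in limma (0.155, adjusted p = 0.0302) and with 1 baseline group made of both arms (0.257, adjusted p = 0.007). Rps29 and Rps15 rose least among the called members, by 0.22 and 0.33 on the log2 scale.

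**Figure D2:**
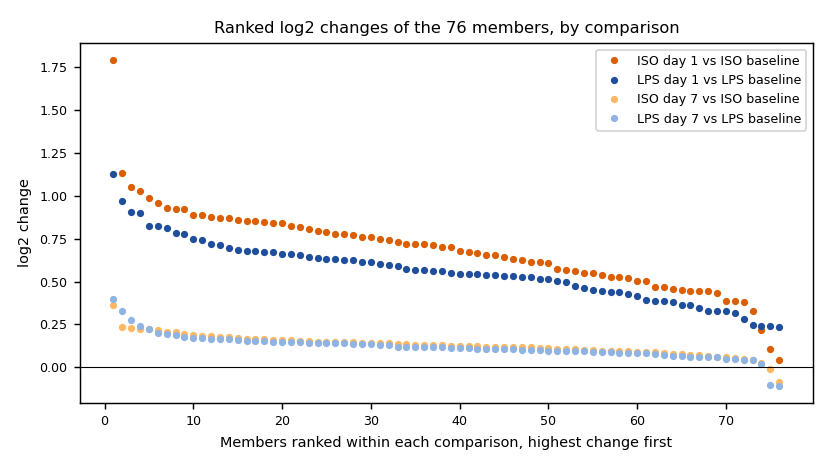
Log2 changes of the 76 members (edgeR), ranked within each of 4 comparisons with the arm's own baseline. The day 1 series run from 1.79 to 0.04 for ISO and from 1.13 to 0.23 for LPS, while both day 7 series lie between -0.11 and 0.40.

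The same question was asked 1 day after LPS. By edgeR's quasi-likelihood test 76 of 76 members rose and none fell, against 33.2% of all genes tested that rose and 33% that fell, with a median log2 change of 0.55 against 0.00 over all genes. In 73 of the 76 every day 1 library lay above every baseline library in CPM, against 29.3% of all genes; Rpl23a and Rps29 were among those that overlapped. The large-subunit median was 0.57 and the small-subunit median 0.54. The largest change was that of Rpl12, at 28.6, 34.4, 30.1 and 31.3 CPM at LPS baseline and 71.6, 81.4, 55.7 and 63.5 CPM on day 1. The day 1 hearts were uneven but each stood well above baseline, and the log2 change was 1.13 ± 0.10 (adjusted p = 1.75e-09 by edgeR).

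Rpl3 was at 62.6, 79.4, 72.4 and 74.6 CPM at LPS baseline and at 159, 134, 126 and 147 CPM on day 1, a log2 change of 0.97 ± 0.10 (adjusted p = 8.37e-09 by edgeR). Rps27a, which is made as a fusion with ubiquitin, rose by 0.91, Rps6 by 0.90, Rps18 by 0.83 and Rps20 by 0.82 on the log2 scale. Among the smallest changes were those of Rps21 (0.23), Rpl23a (0.24) and Rpl22 (0.25), all called by edgeR. Of these, Rps21 and Rpl23a lost the call against a baseline group made of both arms (adjusted p = 0.399 and 0.28 by edgeR), and Rpl23a also without LPS day 1 replicate 2 (0.0636).

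Members that changed much after ISO tended to change much after LPS. Across the 76 genes the day 1 changes in the separate arms had a Spearman correlation of 0.76 and a Pearson correlation of 0.78, and 0.75 and 0.78 without Rpl3. The 2 arms had separate baselines, but genes share transcript length, base composition and level between them and are not independent. Within the members, the ISO day 1 change had a Spearman correlation of 0.30 with effective length and of -0.31 with mean TPM, and the LPS day 1 change 0.19 and -0.28, so longer and less abundant members tended weakly toward larger changes.

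**Figure D3:**
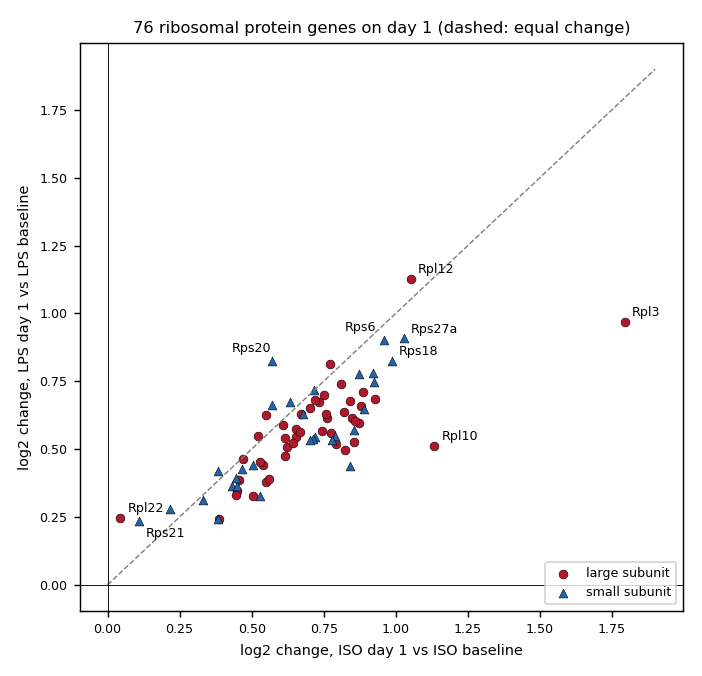
Log2 change after ISO (horizontal) and after LPS (vertical) on day 1 for each member, circles for the large subunit and triangles for the small; the dashed line marks equal changes. Rpl3 (1.79 and 0.97) and Rpl10 (1.13 and 0.51) lie below the line, and Rps20 (0.57 and 0.82) above it.

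Whether the day 1 changes differed between ISO and LPS was tested as an interaction, the ISO change minus the LPS change. By edgeR's quasi-likelihood test 11 members rose more after ISO and 1 rose more after LPS, against 19.5% and 18.2% of all genes tested. The members' median difference was 0.12, against 0.00 over all genes. The share of members called higher, 11 of 76, was thus no larger than that of all genes. Leaving out 1 library gave 5 to 18 members with a larger ISO change, the fewest without ISO day 1 replicate 2 and the most without LPS day 1 replicate 2, and 6 were called with the compared groups fitted alone or with no count filter. Most genes named for this comparison were chosen after their values were seen.

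Rpl3 differed most, with an ISO change larger by 0.83 ± 0.14 on the log2 scale (adjusted p = 6.87e-05 by edgeR). Rpl10 rose after LPS from 90.4, 113, 102 and 98.2 CPM to 152, 146, 141 and 135 CPM, a log2 change of 0.51 ± 0.06, against 1.13 after ISO. The difference was 0.62 ± 0.09 (adjusted p = 1.75e-05 by edgeR), and 0.63 with reads of its named pseudogenes added. The difference of Rps13, a small-subunit protein at the interface with the large subunit, was 0.40 ± 0.11 (adjusted p = 0.00581). Over all alternatives tried, these differences stayed between 0.77 and 0.89 for Rpl3, between 0.56 and 0.73 for Rpl10 and between 0.33 and 0.58 for Rps13, with the call kept each time. The alternatives include pooled baselines, where the baseline cancels and ISO day 1 is set directly against LPS day 1.

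The other 8 members with a larger ISO change were Rpl5, Rpl17, Rps15a, Rpl7a, Rpl6, Rps7, Rpl18 and Rpl4, with differences of 0.33 down to 0.24. Of 38 alternatives, 18 ended the call for Rpl4, 12 for Rpl18, 11 for Rpl7a, 10 for Rps7, 5 for Rps15a, 2 for Rpl5, 1 for Rpl6 and 0 for Rpl17. Rps20 rose in both arms, from 85.1, 84.8, 83.0 and 84.5 CPM to 122, 131 and 122 CPM after ISO and from 61.2, 67.0, 60.9 and 63.0 CPM to 115, 124, 103 and 104 CPM after LPS. The call on its difference of -0.25 ± 0.10 (adjusted p = 0.0424 by edgeR) was lost under 11 of 23 single-library omissions. With pooled baselines, that is ISO day 1 directly against LPS day 1, the value was 0.17, which is not a difference of changes.

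The size of the difference between arms rests on their baselines, which were not alike. At LPS baseline 65 of the 76 members were lower than at ISO baseline, with a median log2 difference of -0.17 and a range from -0.71 for Rps29 to 0.20 for Rpl5. The share and median over all genes are not given for this comparison, so it cannot be told whether the difference is particular to the members. Rplp1 stood at 647, 654, 655 and 630 TPM at LPS baseline, below the 954, 1034, 946 and 981 TPM at ISO baseline. Shorter members tended to be the lower ones, with a Spearman correlation of 0.41 between the difference in CPM and effective length over 76 genes, and 0.43 for TPM. Both groups were untreated, and arm and library handling cannot be told apart. With both baselines pooled into 1 group the baseline cancels, and ISO day 1 is set directly against LPS day 1. In that comparison 57 members were higher after ISO by edgeR and none lower. It holds any difference between the arms and does not measure a larger change, and the share of all genes called in it is not given.

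By day 7 the levels had come down. Between day 1 and day 7 after ISO, 73 of 76 members fell by edgeR's quasi-likelihood test, against 31.9% of all genes, with a median log2 change of -0.57. After LPS 73 of 76 fell, against 32.5% of all genes, with a median of -0.45. That median was -0.26 with library totals, where the median of all genes was 0.20. It was -0.22 with log2(TPM + 0.1) in limma, where 47 members were lower and 1 higher and the median of all genes was 0.23. The share of all genes called with TPM is not given. Rpl3 fell from 241, 268 and 249 CPM to 82.0, 87.6, 105 and 99.9 CPM after ISO, the largest fall (-1.43 on the log2 scale). Rps27a fell most after LPS (-0.81), from 104, 116, 79.1 and 87.9 CPM to 63.0, 53.8, 52.1 and 51.9 CPM. The 3 that did not pass were Rps29, Rps21 and Rpl22 after ISO and Rpl22, Rpl23a and Rps21 after LPS, which are among the members that rose least on day 1.

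Against baseline, no member was called on day 7 after ISO. By edgeR's quasi-likelihood test 0 members were higher and 0 lower, as were 0% and 0.00636% of all genes tested, and DESeq2 and limma-voom called none of the members. At an unadjusted p under 0.05 there were 34 members higher, against 3.16% of all genes, and none lower, against 2.33%. The median log2 change was 0.13, with 74 of 76 above 0, against 0.00 over all genes. In 34 members every day 7 library lay above every baseline library in CPM, against 2.04% of all genes. Rpl3 was again highest, at 82.0, 87.6, 105 and 99.9 CPM against 68.3 to 76.7 CPM at baseline, a log2 change of 0.36 ± 0.10 (adjusted p = 0.709 by edgeR).

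On day 7 after LPS, 6 members were higher than at baseline by edgeR, against 5.96% of all genes tested, and none was lower, against 3.13%. The share of members called higher, 6 of 76, was thus close to that of all genes. No member was lower at an unadjusted p under 0.05, against 9.75% of all genes, or with DESeq2 or limma-voom. The median log2 change was 0.12, with 74 of 76 above 0. The 6 were Rpl3 (0.40), Rpl12 (0.33), Rps12 (0.28), Rps19 (0.24), Rpl13a (0.22) and Rps4x (0.17). The change of Rps12 was -0.02 with pooled baselines (adjusted p = 0.93 by edgeR), and its call was also lost with reads of named pseudogenes added (0.068). Rps19, a small-subunit protein needed for maturation of its ribosomal RNA, was at 54.8, 59.1, 56.1 and 53.7 CPM at baseline and at 77.1, 62.5, 62.8 and 61.6 CPM on day 7. The groups did not overlap, and replicate 1 stood above the other day 7 hearts.

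That count depended on scaling and on single libraries. TMM factors of the LPS day 7 libraries were the highest of the series, at 1.09 to 1.13, and with library totals in place of TMM 70 members were called, while the median of all genes moved from 0.00 to 0.16. With log2(TPM + 0.1) in limma 72 were called and the median of all genes was 0.20. The share of all genes called is given for the main fit only, so the 70 and 72 cannot be set against it. The members' median less the median of all genes was 0.11 with TMM, 0.11 with library totals and 0.12 with TPM. Leaving out any of LPS day 7 replicate 1 and LPS baseline replicates 1, 3 and 4 left 1 member called, and leaving out LPS baseline replicate 2 or LPS day 7 replicates 2 or 3 left 3. The change on day 7 was called as different between ISO and LPS for 0 members by edgeR, DESeq2 or limma-voom, while edgeR called 0.0953% of all genes as higher after ISO and 0.362% as lower. At an unadjusted p under 0.05, 1 member was higher and none lower, against 4.02% and 5.44% of all genes.

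Of the 7 paralogs outside the rule that were tested, 6 rose on day 1 in each arm by edgeR, and Rpl3l fell. Among all genes tested 32.9% rose after ISO and 33.2% after LPS. Rpl3l encodes a form of the L3 protein restricted to heart and skeletal muscle, and it lay above Rpl3 in untreated hearts, at 151, 165, 166 and 165 TPM against 61.9, 68.9, 58.6 and 67.4 TPM at ISO baseline. On day 1 after ISO the order was reversed, with Rpl3l at 111, 107 and 110 TPM and Rpl3 at 216, 255 and 214 TPM. The ratio of Rpl3l to Rpl3 was 2.53 ± 0.208 (SD, n = 4) at baseline, 0.483 ± 0.0539 (SD, n = 3) on day 1 and 1.94 ± 0.51 (SD, n = 4) on day 7. In the LPS arm it was 2.53 ± 0.279, 1.05 ± 0.194 and 1.76 ± 0.286 (SD, n = 4 each), so on day 1 the pair stood at similar levels.

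Rpl3l itself fell by 0.60 ± 0.12 on the log2 scale after ISO (adjusted p = 0.000109 by edgeR) and by 0.30 ± 0.11 after LPS (adjusted p = 0.0163), where the call was lost without LPS day 1 replicate 3 (adjusted p = 0.0738). In CPM its libraries did not overlap between ISO day 1 and baseline but did between LPS day 1 and baseline. In TPM they did not overlap in the LPS arm either, at 132, 141, 127 and 131 TPM on day 1 and 164 to 172 TPM at baseline. The summed TPM of 10 cardiomyocyte markers moved the same way as Rpl3l, at 54848 ± 519 at ISO baseline and 41203 ± 3263 on day 1, and at 53383 ± 479 and 37183 ± 1384 in the LPS arm, with 8 of 10 lower by edgeR in each arm and none at 0. Of all genes tested, 32.8% were lower after ISO and 33% after LPS. The part of these markers in the Rpl3l values was not tested.

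Rpl22l1, the paralog of Rpl22, rose in both arms, by 0.85 ± 0.16 after ISO and 0.89 ± 0.16 after LPS (adjusted p = 8.11e-05 and 2.62e-05 by edgeR). It remained a small part of the pair, at 9.91 to 13.9 TPM at ISO baseline and 20.1, 28.6 and 18.1 TPM on day 1, against 198 to 233 TPM of Rpl22. Among the members, Rps27a rose after ISO from 67.2, 61.0, 62.7 and 58.6 CPM to 131, 129 and 122 CPM (1.03 ± 0.10, adjusted p = 3.28e-09 by edgeR), and its groups did not overlap. Outside the rule, Fau, Rack1 and Rps3a1 rose in both arms, led by Rack1, a scaffold protein on the small subunit, with 0.85 after ISO and 0.56 after LPS.

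**Figure D4:**
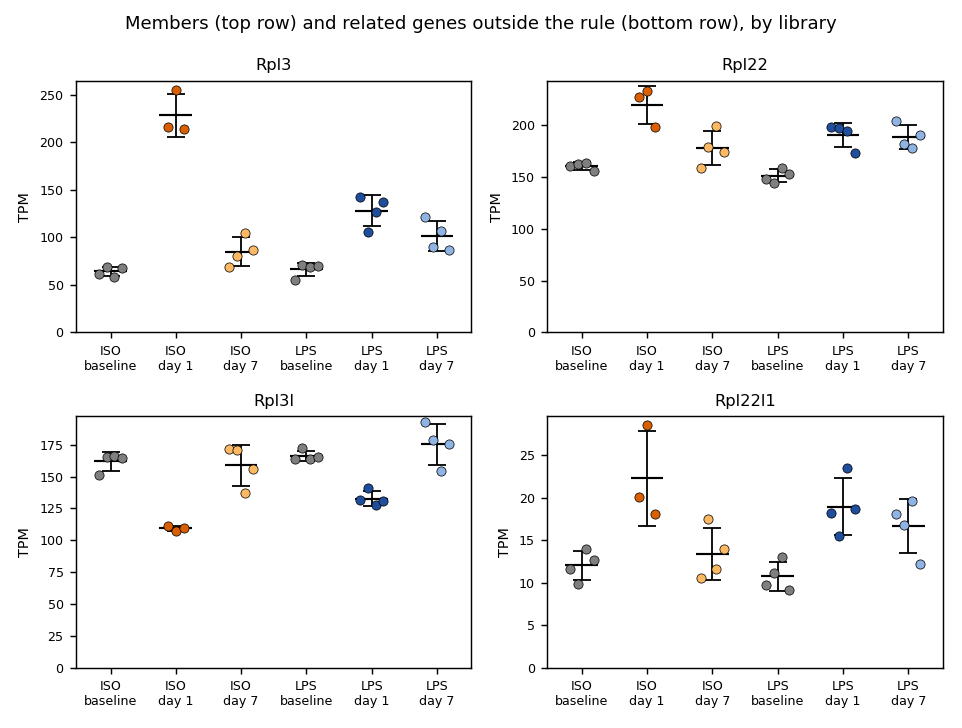
TPM by library of Rpl3 and Rpl22 (top row) and of a related gene outside the rule for each (bottom row); long bars are means and whiskers SD. Rpl3 and Rpl3l exchange order on ISO day 1, and Rpl22 and Rpl22l1 are both higher on day 1.

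The balance of the subunits in summed TPM shifted slightly toward the large one on day 1. The ratio of large-subunit to small-subunit TPM was 1.41 ± 0.0163 (SD, n = 4) at ISO baseline, 1.499 ± 0.00784 (SD, n = 3) on day 1 and 1.41 ± 0.0233 (SD, n = 4) on day 7. In the LPS arm it was 1.37 ± 0.0131, 1.43 ± 0.0161 and 1.37 ± 0.00623 (SD, n = 4 each). The day 1 libraries lay above baseline with no overlap in both arms, and no test is given for this ratio. The sums hold only genes of the rule. They leave out Rps3a1, Rack1, Fau and Rpl3l, with means of 284, 266, 207 and 153 TPM over the 23 libraries. Abundant genes weigh most in such sums, and the median log2 changes of the subunits given above were close to each other.

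Other genes of the translation machinery were followed in lists. Of all genes tested on day 1, 32.9% rose and 32.8% fell after ISO, and 33.2% rose and 33% fell after LPS. Among ribosome assembly factors and RNA polymerase I genes, 59 of 69 rose and 3 fell after ISO (median 0.82), and 56 rose and 4 fell after LPS (median 0.54). Rrp12, a factor for export and maturation of both subunits, rose by 2.70 ± 0.11 after ISO and 1.93 ± 0.10 after LPS (adjusted p = 6.86e-15 and 2.16e-13 by edgeR), and Ddx21, a nucleolar helicase, rose by 1.83 after ISO. Host genes of small nucleolar RNAs rose in 10 of 13 after ISO (median 1.01) and in 11 of 13 after LPS (median 1.88, with 1 lower). Snhg5 rose by 2.27 and 2.79, Snhg6 by 1.59 and 1.88 and Gas5 by 1.03 and 1.55, in that order of agents.

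Initiation factors rose in 26 of 30 after ISO (2 fell, median 0.49) and in 23 after LPS (2 fell, median 0.38). Of all genes tested, 32.9% rose after ISO and 33.2% after LPS. Eif4a1, the helicase that unwinds leaders of messenger RNAs, rose by 1.82 and 1.36, and Eif6, which holds the large subunit apart until it is mature, by 1.46 and 1.65. Elongation factors and other TOP messenger RNAs rose in 13 of 18 after ISO (median 0.44) and in 15 after LPS with 1 lower, Pabpc4 (median 0.31). Pabpc1, the poly(A)-binding protein, rose by 1.38 and 1.04. Cytosolic tRNA synthetases rose in 15 of 20 after ISO (1 fell, median 0.63) and in 14 after LPS (1 fell, median 0.33), where Wars, the tryptophanyl-tRNA synthetase, reached 1.98.

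Among genes of the mTORC1 pathway and of MYC and its partners, 15 of 30 rose and 8 fell after ISO (median 0.27). After LPS 15 rose and 9 fell (median 0.37). Of all genes tested, 32.9% and 33.2% rose, in that order of agents. The shares of the list that fell were no larger than the 32.8% and 33% of all genes. Myc rose by 3.34 ± 0.31 after ISO (adjusted p = 3.66e-09 by edgeR) and by 3.48 after LPS. Eif4ebp1, which encodes a repressor of cap-dependent initiation, rose by 1.70 after LPS, Mlxipl, a glucose-responsive relative of MYC, fell by 1.37 after ISO, and Rragb, a GTPase that brings mTORC1 to the lysosome, fell by 2.18 and 2.25.

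Genes of the mitochondrial ribosome were more often lower than higher on day 1. Of 78 mitochondrial ribosomal protein genes, 10 rose and 46 fell after ISO (median -0.28), and 12 rose and 47 fell after LPS (median -0.24). Among all genes tested 32.9% rose and 32.8% fell after ISO, and 33.2% rose and 33% fell after LPS. Mrpl39 fell by 1.29 in both arms and Mrpl3 by 0.67 and 0.71, while Mrps18b rose by 1.33 after ISO. Respiratory chain subunits, which like many members have short and abundant messenger RNAs, were lower in 37 of 55 after ISO (median -0.25), against 32.8% of all genes. After LPS 13 of 55 were lower (median -0.09), a smaller share than the 33% of all genes, and none was higher in either arm. Ndufs7, a subunit of complex I, fell by 0.56 and 0.51. On day 7 the medians of these lists against baseline lay between -0.15 and 0.19 in both arms.

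**Figure D5:**
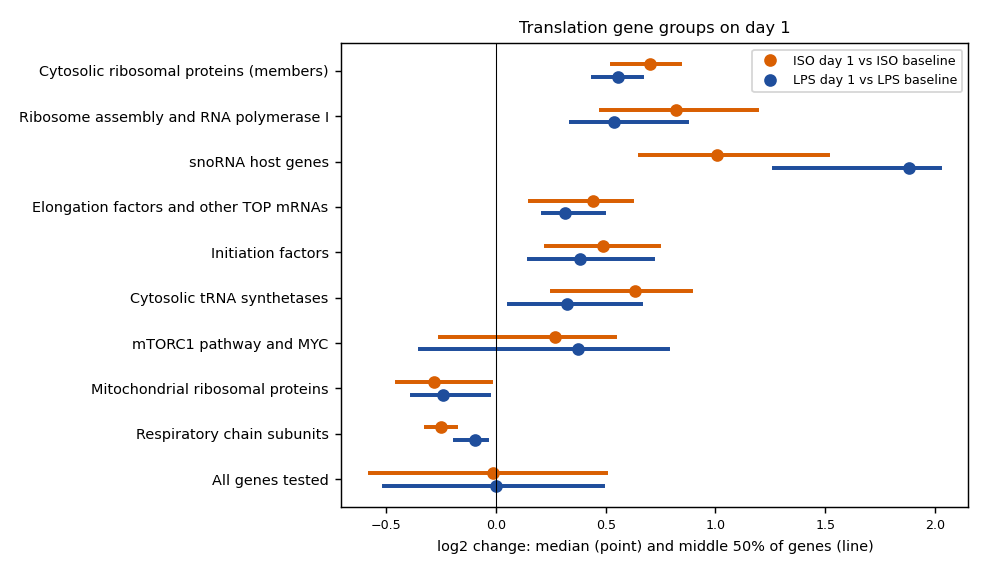
Median log2 change (point) and the middle 50% of genes (line) on day 1 for the members, 8 other gene lists and all genes tested, in orange for ISO and blue for LPS. The lists of cytosolic translation and ribosome assembly lie to the right of 0 and the mitochondrial lists to the left.

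Cell type markers were measured beside these genes because the heart libraries hold several cell types. The summed TPM of 10 neutrophil markers was 1.01 ± 0.19 at ISO baseline and 26.9 ± 8.17 on day 1, and 1.16 ± 0.162 and 27.2 ± 4.94 in the LPS arm, with Ly6g at 0 in both baselines. That of 10 endothelial markers was 757 ± 72.3 and 2007 ± 185 in the ISO arm, and 743 ± 69.5 and 1426 ± 165 in the LPS arm, with none at 0. By edgeR 5 endothelial markers were higher and 2 lower after ISO, and 4 higher and 3 lower after LPS. Of all genes tested on day 1, 32.9% were higher and 32.8% lower after ISO, and 33.2% and 33% after LPS. Macrophage markers were at 180 ± 13.5 and 125 ± 6.85 in the ISO arm, and at 185 ± 21 at LPS baseline, 78.5 ± 9.5 on day 1 and 396 ± 43.4 on day 7, when 10 of 10 were higher by edgeR; on day 1, 5 were lower and 1 higher after ISO, and 6 lower and 1 higher after LPS. Fibroblast markers were at 882 ± 42.2 and 550.5 ± 43.7 in the ISO arm, with 5 of 10 lower and 2 higher, and at 964 ± 81.8 and 747 ± 90.9 in the LPS arm, with 7 lower and 1 higher. Lymphocyte markers were at 1.46 ± 0.224 at LPS baseline and 11.8 ± 1.70 on day 7, when 4 of the 7 tested were higher. Of all genes tested, 5.96% were higher on day 7 after LPS. The 5 erythroid markers summed to 1608 ± 450 at ISO baseline and 705 ± 305 on day 1, with 4 lower. In the LPS arm they summed to 2410.0 ± 522 at baseline, 1371 ± 174 on day 1 and 5558 ± 4339 on day 7, where replicate 2 stood at 11985 and no erythroid marker was called. ISO day 7 replicate 3 stood apart from the other day 7 hearts of its arm in macrophage (381) and fibroblast (1605) markers and had the highest member share of that group (1.21%). Without it the members' median on day 7 after ISO was 0.12 and no member was called. These groups have the same numbers of libraries as above, and the part of any cell type in the members' changes was not tested.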

How the data were processed

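The series holds poly-A RNA of 23 mouse hearts, 1 library each. Per the file headers, the authors deposited for each gene an estimated count of reads, TPM and the effective length in bases, another quantity used here for offsets. Per the submitters' processing notes, bcl2fastq, DRAGEN, edgeR, limma and mm10 were used; no version is stated, and the annotation release and strand setting were not given in the sources used here, so overlapping and antisense genes cannot be separated. Of 55487 identifiers, 55227 matched GENCODE M21 (GRCm38).

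Estimated counts were rounded (9.50% of values were not whole) and tested in edgeR 4.0.16 under R 4.3.3: TMM, filterByExpr with a minimum count of 10, and quasi-likelihood fits of 6 group means over 23 libraries without covariates. Tests were two-sided, and genes were called at a Benjamini-Hochberg adjusted p under 0.05 over all genes tested. Changes are log2 fold changes with standard errors obtained from its F statistic. The biological coefficient of variation was 11.0%. Named genes were a fixed panel, the 4 largest and 4 smallest member changes per comparison with a baseline, and for each list up to 4 genes of smallest adjusted p, plus those stated to have been chosen after their values were seen; some genes are not reported here. The members and gene lists were chosen with earlier results of these data known. Alternatives were other scalings, DESeq2 1.42.0, limma 3.58.1 with voom or log2 TPM, count filters, samples in the fit, a replicate block, length offsets, pseudogenes added, mitochondrially encoded genes left out, pooled baselines and leaving out each library. The procedure was tested on simulated data.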

Additional observations from a re-analysis of the deposited data

Results flagged for a closer look

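Of 205 checks of genes and of the members' share of reads, over 5 groups of 4 libraries, 7 passed Dixon's 95% value. All 7 were in the LPS day 7 group, where replicate 1 stood above the other 3 libraries. These were Rps19 at 77.1 CPM, Rpl13a at 228 CPM, Rplp0 at 607 CPM, Rplp2 at 211 CPM, Rps15 at 219 CPM, Rpl23a at 163 CPM and, outside the rule, Rack1 at 210 CPM. Chance flags about 1 in 20 groups, and 7 of 205 is no more than that rate. These genes share a library, so the checks are not independent. Without this replicate 1 member was called on day 7 after LPS by edgeR in place of 6.

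The day 1 change differed between ISO and LPS, by the interaction test in edgeR, in 14 of 40 genes checked. It was larger after ISO for Rpl3 by 0.83, Rpl10 by 0.62, Rps13 by 0.40, Rpl5 by 0.33, Rpl17 by 0.33, Rps15a by 0.29, Rpl7a by 0.28, Rpl6 by 0.25, Rps7 by 0.25, Rpl18 by 0.24 and Rpl4 by 0.24 on the log2 scale, and for the related genes Rpl36al by 0.38 and Rack1 by 0.30. For Rps20 the difference was -0.25, larger after LPS. Of all genes tested, 19.5% were called with a positive difference and 18.2% with a negative one. As stated above, most genes named for this comparison were chosen after their values were seen.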

How the results depend on the processing

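The count of members that rose on day 1 was 74 to 76 after ISO and 67 to 76 after LPS in all alternatives run, with medians of 0.67 to 0.78 and 0.48 to 0.61. On day 7 after LPS the count of 6 became 12 with the compared groups fitted alone, 3 without a count filter, 70 with library totals and 72 with log2(TPM + 0.1) or log2(TPM + 1), with medians of 0.27, 0.32 and 0.32 for the last 3; leaving out 1 library gave 1 to 9. Between day 1 and day 7 after LPS, library totals gave a median of -0.26, and TPM with either pseudocount gave -0.22 and -0.21, 47 members lower and 1 higher. For the day 1 difference between agents, 6 members were higher after ISO with groups fitted alone, 6 without a filter and 19 with TPM at either pseudocount. Pooled baselines cancel here, so ISO day 1 is set directly against LPS day 1, and 57 were higher (median 0.27). Leaving out 1 library gave 5 to 18. The fewest were without ISO day 1 replicate 2, with 6 or 7 without ISO baseline replicates 2 or 4, LPS baseline replicate 2 or LPS day 1 replicates 3 or 4, and the most without LPS day 1 replicate 2. The 1 member lower there became 0 with length offsets, library totals, TPM, no filter or pooled baselines, and 0 to 2 with 1 library left out. For the day 7 difference, library totals gave a median of -0.11, and TPM -0.16 with 1 lower. Pooled baselines, which here set ISO day 7 directly against LPS day 7, gave 26 higher (median 0.19). Shares of all genes called are given for the main fit only, so these counts are not set against them.

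Signs turned for Eif4g1 (0.0096 and 0.0095), Mars (0.093 and 0.089) and Mrps7 (0.020 and 0.020) on day 7 after LPS with TPM at pseudocounts of 0.1 and 1. Between day 1 and day 7 after LPS they turned for Fau (0.0013 with library totals, 0.043 and 0.043 with TPM) and Rps4x (0.025 and 0.025). Rpl22 between ISO day 1 and day 7 was -0.29 with length offsets and -0.30 with TPM. With pooled baselines, which set ISO day 1 directly against LPS day 1, the values were 0.26 for Rpl41, 0.26 for Uqcr10 and 0.17 for Rps20. The change of Rps12 on day 7 after LPS was -0.023 with pooled baselines. The cause was not tested.

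Same-numbered libraries did not deviate together (r from -0.118 to 0.082), so the numbers were not taken as pairs. With the replicate block, 74 members were higher on day 1 after ISO, 76 after LPS, 6 on day 7 after LPS, and 10 higher and 1 lower in the day 1 difference between agents, with 73 lower between day 1 and day 7 in each arm.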
